A study of Homo sapiens with 6 samples.

Results

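The clustered protocadherins are cell surface cadherins encoded side by side on chromosome 5 in the alpha, beta and gamma clusters. They were taken here as every protein-coding gene whose GENCODE symbol is PCDHA, PCDHAC, PCDHB, PCDHGA, PCDHGB or PCDHGC followed by digits. That gave 53 genes of the 58336 in the tables, 15 in the alpha, 16 in the beta and 22 in the gamma cluster, all on the plus strand between PCDHA1 (ENSG00000204970, chr5:140786136-141012347) and PCDHGC5 (ENSG00000240764, chr5:141489121-141512979, GRCh38). A further 6 pseudogenes of the clusters were left out.

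The RNA came from clones of KGN. This line was grown from a granulosa cell tumour of a human ovary, and 1 of its FOXL2 copies encodes the C134W protein change. FOXL2 is a forkhead factor that maintains granulosa cell identity. The clones 44a and 4.72 are FOXL2 WT/WT, their mutation having been reverted with CRISPR/Cas9. The clones 3.11 and 44b are FOXL2 WT/C134W, and no editing is recorded for them, so effects of genotype and of editing cannot be told apart. In every group RNA was extracted 30 h after transfection, and what was transfected is not stated in the labels. The third library of each genotype carries both clone names, 4.72-44a and 3.11-44b, and is called the joined library here. Comparisons between genotypes therefore rest on 4 libraries, 2 clones per genotype. No label says that libraries came from separate cultures, so p-values measure the spread between these clones, and each clone stands for 1 isolate of an altered tumour line.

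Summed expected counts ran from 35332727 to 46613068 per library, at which 3 counts equal 0.0663 to 0.0781 CPM (reads scaled to a common, TMM-normalised library total), covering counting error only. FOXL2 itself was measured at 7.38 CPM in 44a, 4.87 in 4.72 and 4.34 in 4.72-44a, against 9.26 in 3.11, 10.1 in 44b and 6.32 in 3.11-44b, and a gene count does not show the allele. Of 11 granulosa cell markers, 5 (FOXL2, AMH, INHBA, NR5A1 and STAR) reached 1 TPM in every library, and 6 (FSHR, AMHR2, CYP19A1, INHA, GATA4 and WT1) stayed below it in every library. Of 6 neuron markers, RBFOX3, SYN1 and STMN2 stayed below 1 TPM throughout, while SNAP25, MAP2 and GAP43 reached it throughout, with a summed level of 22.8 to 26.1 TPM in WT/WT and 14.8 to 32.2 TPM in WT/C134W.

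Clustered protocadherins are best known from neurons, where each cell shows its own combination of isoforms, and matching combinations on touching membranes bind each other and let a neuron tell its own branches from those of its neighbours. Each variable exon encodes the whole outer part, the membrane span and the start of the inner part of 1 isoform and has a promoter of its own, chosen with the help of CTCF and cohesin, and DNA methylation keeps unused promoters silent. The alpha and gamma variable exons are spliced to constant exons at the end of their cluster that encode a common inner end, while each beta gene stands alone without them. The last members of the alpha and gamma clusters, the C-type isoforms PCDHAC1, PCDHAC2, PCDHGC3, PCDHGC4 and PCDHGC5, are used more widely among neurons than the others.

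The sharing of exons bears on every count below, and the first constant exon of each cluster shows its extent. All 15 alpha genes hold the exon at chr5:140978949-140979007 and all 22 gamma genes hold the one at chr5:141494807-141494865 (GRCh38, plus strand), each 59 bases long and wholly coding.
alpha first constant exon: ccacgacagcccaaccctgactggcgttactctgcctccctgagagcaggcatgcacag
gamma first constant exon: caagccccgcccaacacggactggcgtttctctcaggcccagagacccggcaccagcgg
The second constant exon, 89 bases in each cluster, was likewise held by all 15 and all 22 genes. A read from these exons names the cluster and not the isoform, so the deposited counts of alpha and gamma members depend on how such reads were shared out among genes. In the longest transcript of each gene, a median of 58.0% of all 50-base stretches also occurred in another clustered protocadherin or its pseudogenes for alpha, 47.4% for gamma and 14.4% for beta. The beta genes are not free of this: PCDHB8 shared 33.0% of its stretches with PCDHB13, and PCDHB10 shared 23.2% with PCDHB9.

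Promoter stretches are shown for the members whose detection differed between clones in the results that follow, and for PCDHGC3, the most abundant member, which was added after its values were seen. Each is the 110 bases that end just before the earlier of the RefSeq and GENCODE starts, from the plus strand of RefSeq's GRCh38.p14 table, in which 47 of the 53 members were found, 7 of the 9 that differed among them. The capitals mark the letters CGCTG, which form the core of the sequence element known to be conserved in these promoters. The letters can also occur outside that element, and whether each match lies in it was not tested.
PCDHB2, chr5:141094468-141094577: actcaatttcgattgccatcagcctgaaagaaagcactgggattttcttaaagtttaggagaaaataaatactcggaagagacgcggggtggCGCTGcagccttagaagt
PCDHB3, chr5:141100363-141100472: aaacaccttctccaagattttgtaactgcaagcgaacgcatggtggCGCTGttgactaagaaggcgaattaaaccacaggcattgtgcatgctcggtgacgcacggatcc
PCDHB10, chr5:141192243-141192352: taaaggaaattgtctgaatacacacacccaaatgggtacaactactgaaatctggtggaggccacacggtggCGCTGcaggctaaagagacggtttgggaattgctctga
PCDHB12, chr5:141208587-141208696: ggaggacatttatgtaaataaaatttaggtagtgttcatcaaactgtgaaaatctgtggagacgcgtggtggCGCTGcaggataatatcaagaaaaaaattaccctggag
PCDHB13, chr5:141213809-141213918: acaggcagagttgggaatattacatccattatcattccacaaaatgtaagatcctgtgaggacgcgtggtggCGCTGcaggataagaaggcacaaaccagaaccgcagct
PCDHGA4, chr5:141354911-141355020: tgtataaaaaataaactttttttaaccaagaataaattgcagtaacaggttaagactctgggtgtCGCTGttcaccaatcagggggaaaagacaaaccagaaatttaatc
PCDHGB7, chr5:141417535-141417644: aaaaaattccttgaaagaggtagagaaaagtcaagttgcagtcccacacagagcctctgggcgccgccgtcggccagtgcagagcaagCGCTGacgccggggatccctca
PCDHGC3, chr5:141475837-141475946: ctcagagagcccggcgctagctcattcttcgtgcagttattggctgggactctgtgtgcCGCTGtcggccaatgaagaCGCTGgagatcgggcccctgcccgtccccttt
The first base of CGCTG lay 55 bases before the RefSeq start in PCDHB2, 64 in PCDHB3, 38 in both PCDHB10 and PCDHB13, 60 in PCDHB12, 45 in PCDHGA4 and 54 in PCDHGB7. PCDHGC3 held the letters at 70 and at 51 bases before its start.

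The letters were searched on both strands in windows of 300 bases, 250 before and 50 after each start, in the members and in 35116 promoters of the table. CGCTG stood in 9 of 13 alpha, 12 of 14 beta and 20 of 20 gamma windows, beside 48.0% of all promoters, since 5 letters occur often. For each cluster the 8-letter string around CGCTG held by the most of its windows was then taken, so its count in that cluster is a description. In beta this was TGGCGCTG, in 12 of 14 beta, 0 alpha and 1 gamma windows, beside 1.91% of all promoters. In gamma it was GCCGCTGT, in 11 of 20 gamma, 0 alpha and 0 beta windows, beside 1.63%. In alpha it was TGTCGCTG, in 6 of 13 alpha, 0 beta and 3 gamma windows, beside 0.683%. All 5 beta stretches printed above hold the beta string. The letters TATAAA stood in 3 of 13 alpha, 1 of 14 beta and 2 of 20 gamma windows, beside 11.5% of all promoters. A string match is a description of the letters and not a site.

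A member was called expressed in a library at 1 TPM (a level scaled by transcript length) or more with at least 10 expected counts. By this rule 44a expressed 18 of the 53 members, 4.72 expressed 14, 3.11 expressed 13 and 44b expressed 18, while the joined libraries expressed 14 (4.72-44a) and 16 (3.11-44b). At 0.5 TPM the 4 clones expressed 22, 19, 17 and 22 members in the same order, and at 2 TPM 16, 11, 9 and 14. In all, 20 members were expressed in at least 1 library, 12 of 16 beta, 8 of 22 gamma and 0 of 15 alpha genes. A core of 11 was expressed in all 4 clones, made of PCDHB7, PCDHB8, PCDHB16, PCDHB9 and PCDHB14 and of PCDHGA1, PCDHGB1, PCDHGB2, PCDHGA10, PCDHGC3 and PCDHGC5. The other 9 differed in detection between clones, and none of them was expressed in both clones of 1 genotype and neither of the other. PCDHB2, PCDHB11, PCDHB12 and PCDHB13 were expressed in 44a and 44b, 1 clone of each genotype, and in neither 4.72 nor 3.11. PCDHB6 was expressed in 44a and 3.11, PCDHGB7 in 4.72 and 44b, PCDHB10 in every clone but 3.11, PCDHGA4 in every clone but 44a, and PCDHB3 in 44a alone.

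**Figure D1:**
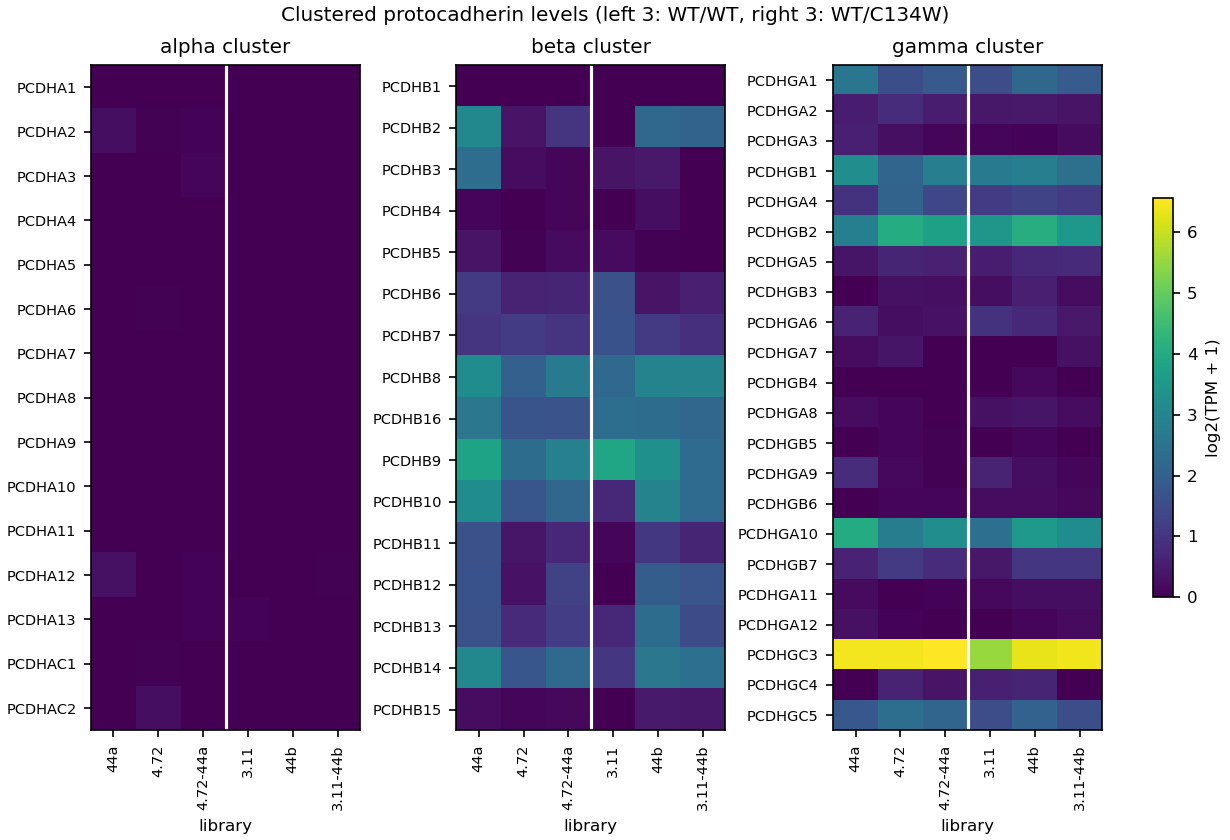
Colour gives log2(TPM + 1) of each of the 53 members (rows, in chromosome order) in each of the 6 libraries (columns), with a white line between the WT/WT and WT/C134W libraries. The alpha panel is near 0 throughout, PCDHGC3 is the brightest row in every library, and 4.72 and 3.11 are darker than 44a and 44b across PCDHB2 and PCDHB10 to PCDHB14.

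By their highest TPM, the members next to the threshold were gamma genes. PCDHGB7 reached 1.18 TPM in 4.72, 1.06 in 44b and 1.04 in 3.11-44b and stayed at 0.33 to 0.77 in the others. PCDHGA6 just missed the threshold with 0.95 TPM in 3.11. Other calls lay closer still in a single clone. PCDHGA4 stood at 0.96 TPM in 44a, PCDHB7 at 1.01 in 44a, PCDHB14 at 1.05 in 3.11 and PCDHB11 at 1.09 in 44b, so a slightly different threshold would move the detection pattern of each. PCDHB13, at 0.76 TPM in 4.72 and 0.70 in 3.11, would count as expressed in all 4 clones at 0.5 TPM. PCDHB7, though called in all 4 clones, missed the threshold in both joined libraries, at 0.99 TPM in 4.72-44a and 0.86 in 3.11-44b.

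The alpha cluster gave almost no reads in any clone. Its 15 genes together held 52 expected counts in 44a, 12 in 4.72 and 18 in 4.72-44a, against 5 in 3.11, 0 in 44b and 1 in 3.11-44b. PCDHA12 held 37 of those in 44a and PCDHA2 held 15, and 8 alpha genes were listed at 0 in all 6 libraries. The C-type members PCDHAC1 and PCDHAC2 were seen in 4.72 alone, at 0.0994 and 0.0497 CPM, and no alpha gene passed the low-count filter, so none was compared between genotypes in the filtered test. PCDHA12 stood at 0.835 CPM in 44a and was listed at 0 in the other 3 clones, with 0.0771 CPM in 4.72-44a. With 3 counts taken for each 0, 44a was at least 11.2-fold higher than 4.72, 11.6-fold higher than 3.11 and 12.6-fold higher than 44b.

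The beta cluster differed between the 2 clones of each genotype. Its 16 genes summed to 111 CPM in 44a and 38.3 in 4.72, with 65.0 in 4.72-44a, and to 36.2 in 3.11 and 90.2 in 44b, with 68.5 in 3.11-44b. One clone of each genotype was high and the other low, the genotypes overlapped, and each joined library lay between its 2 clones. The log2 ratio of mean summed TPM, WT/C134W over WT/WT, was -0.11, but without 44a it was 1.07. With summed CPM the ratio was -0.24, and with summed TPM but without PCDHB9 it was -0.29. Among the 12 expressed beta genes, 44a held the highest CPM of the 4 clones in 7, 44b in 3 and 3.11 in 2, and 3.11 held the lowest in 6 and 4.72 in 4.

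PCDHB2 showed the widest fold range of the expressed beta genes. It stood at 8.55 CPM in 44a, 0.621 in 4.72 and 2.44 in 4.72-44a, against 0 in 3.11, 6.74 in 44b and 4.84 in 3.11-44b. PCDHB12 was likewise listed at 0 in 3.11, with 5.04 CPM in 44b and 3.33 in 3.11-44b, and stood at 3.02 in 44a, 0.696 in 4.72 and 2.29 in 4.72-44a. With 3 counts as the limit that a count of 0 allows (0.0722 CPM in 3.11), 3.11 was at least 118-fold lower than 44a and at least 93.3-fold lower than 44b in PCDHB2. For PCDHB12 the same bounds were at least 41.9-fold and 69.8-fold. A listed 0 is the outcome of how reads were assigned among similar genes as well as of sequencing depth. In bulk RNA, fewer cells that express a gene and less RNA per cell cannot be told apart, so these values do not show whether a clone was mixed.

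PCDHB10, PCDHB11 and PCDHB14 had the same order of clones, 44a highest, then 44b, 4.72 and 3.11. PCDHB10 measured 18.3 CPM in 44a, 5.52 in 4.72 and 7.99 in 4.72-44a, against 1.40 in 3.11, 13.8 in 44b and 8.04 in 3.11-44b. PCDHB11 measured 5.14, 0.920 and 1.87 CPM in the same WT/WT order, against 0.241, 2.25 and 1.61 CPM. PCDHB14 measured 17.8, 5.37 and 9.71 CPM, against 2.21, 10.9 and 11.3 CPM. The WT/WT clones were 3.32-fold apart in PCDHB10, 5.59-fold in PCDHB11 and 3.32-fold in PCDHB14, and the WT/C134W clones 9.89-fold, 9.36-fold and 4.94-fold. PCDHB13 instead was highest in 44b, at 13.0 CPM, with 2.19 in 3.11 and 5.86 in 3.11-44b, and stood at 7.42 in 44a, 2.81 in 4.72 and 4.65 in 4.72-44a. In these 4 genes the ranges of the 2 genotypes overlapped.

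PCDHB8, PCDHB16 and PCDHB9 were expressed everywhere and moved less. PCDHB8 measured 15.2 CPM in 44a, 5.84 in 4.72 and 10.2 in 4.72-44a, against 6.09 in 3.11, 11.5 in 44b and 11.3 in 3.11-44b. PCDHB16 measured 14.1, 5.82 and 7.81 CPM in WT/WT and 8.06, 10.4 and 9.39 CPM in WT/C134W. In these genes 44a was high and 4.72 low, with both WT/C134W clones between them. PCDHB9 measured 14.1, 5.84 and 13.6 CPM in WT/WT and 6.50, 11.3 and 9.03 CPM in WT/C134W, in the same order of clones. Its TPM did not follow, with 13.8 TPM in 3.11 as the highest of the 6 libraries and 13.1 in 44a, where the deposited gene length was 903 bases in 3.11 and 3628 in 3.11-44b. The TPM order of PCDHB9 between clones therefore moved with the deposited length.

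PCDHB6 and PCDHB7 were instead highest in 3.11 among the 4 clones, with 44b lowest in PCDHB6 and 44a lowest in PCDHB7. PCDHB6 measured 2.62 CPM in 44a, 1.02 in 4.72 and 1.05 in 4.72-44a, against 3.75 in 3.11, 0.486 in 44b and 0.807 in 3.11-44b. PCDHB7 measured 2.64, 3.23 and 2.59 CPM in WT/WT and 4.88, 2.8 and 2.06 CPM in WT/C134W. The clone with 0 counts of PCDHB2 and PCDHB12 therefore had the highest level of both. PCDHB3 was below 1 CPM in all 6 libraries, at 0.496, 0.373 and 0.154 CPM in WT/WT and 0.553, 0.795 and 0 CPM in WT/C134W. Its call in 44a, 4.03 TPM, came from 21.8 counts over a deposited length of 309 bases, while 4.72, with 15 counts over 3355 bases, stood at 0.16 TPM. The other 4 beta genes (PCDHB1, PCDHB4, PCDHB5 and PCDHB15) reached at most 0.885 CPM, and PCDHB1 was listed at 0 throughout.

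**Figure D2:**
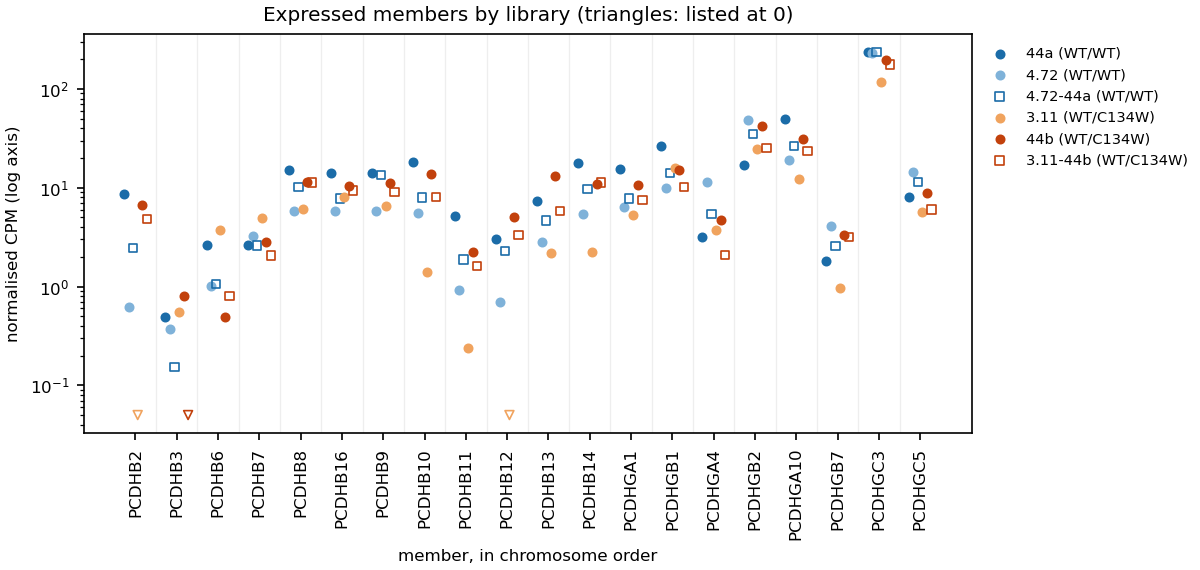
Normalised CPM (log axis) of the 20 members expressed in at least 1 library, with filled circles for the 4 single clones, open squares for the joined libraries and triangles for a listed 0. The beta genes PCDHB2 and PCDHB10 to PCDHB14 spread widely with 3.11 lowest of the 4 clones, PCDHB6 spreads from 0.486 to 3.75 CPM with 3.11 at the top, and PCDHGC3 stays between 117 and 237 CPM.

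The gamma cluster carried most of the output, and PCDHGC3 carried most of the gamma cluster. Gamma genes summed to 370 CPM in 44a, 356 in 4.72 and 345 in 4.72-44a, against 194 in 3.11, 322 in 44b and 261 in 3.11-44b. PCDHGC3 (ENSG00000240184), a C-type isoform, took 64.2% of the gamma counts in 44a (95% Wilson interval 63.4 to 64.9), 65.3% in 4.72 (64.5 to 66.1) and 68.4% in 4.72-44a (67.6 to 69.2). In 3.11 it took 60.1% (59.0 to 61.2), in 44b 60.9% (60.1 to 61.7) and in 3.11-44b 67.8% (66.9 to 68.7). These intervals cover counting error only and not the sharing of constant exon reads among gamma genes.

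**Figure D3:**
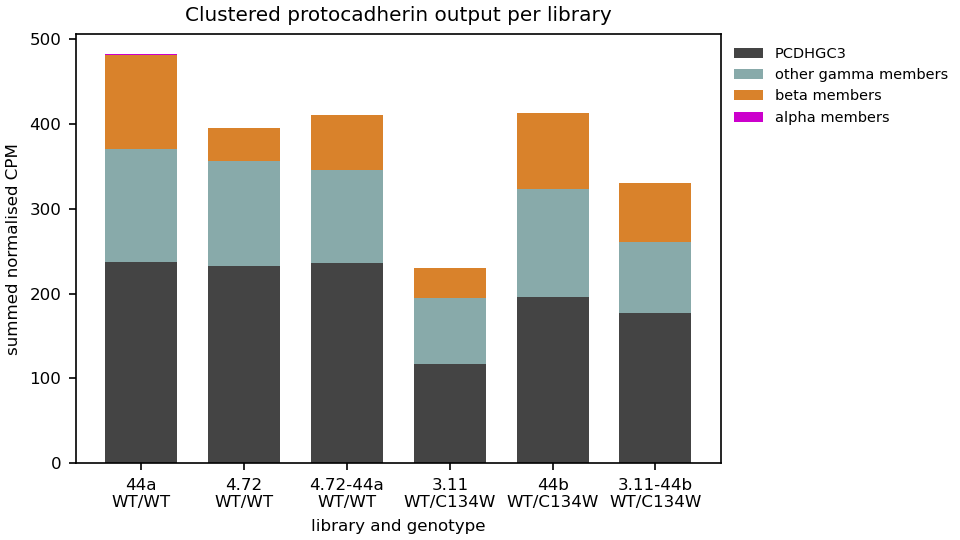
Stacked bars give the summed normalised CPM of PCDHGC3, the other gamma members, the beta members and the alpha members in each of the 6 libraries. The bar of 3.11 is the shortest, and the beta part is thick in 44a and 44b and thin in 4.72 and 3.11.

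PCDHGC3 was close to equal in the WT/WT libraries and lower in 3.11. It measured 237 CPM in 44a, 233 in 4.72 and 236 in 4.72-44a, against 117 in 3.11, 196 in 44b and 177 in 3.11-44b. Both WT/C134W clones lay below both WT/WT clones, with a log2 fold change of -0.58 ± 0.26 (SE) and an adjusted p of 0.692 in edgeR's quasi-likelihood test, so the difference did not pass. The fold change was -1.01 without 44b and -0.26 without 3.11. On the TPM scale it measured 85.8, 86.4 and 93.1 TPM in WT/WT against 46.1, 79.3 and 84.7 TPM, where 3.11 alone stood apart. The deposited length of PCDHGC3 ran from 3322 bases in 3.11-44b to 4119 in 3.11, and its TPM depends on this length as well as on the counts. The other C-type gamma genes were lower by far. PCDHGC5 measured 8.08, 14.3 and 11.5 CPM in WT/WT and 5.63, 8.94 and 6.04 CPM in WT/C134W, with ranges that overlapped, and PCDHGC4 measured 0, 0.746 and 0.848 CPM against 0.818, 1.08 and 0 CPM.

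The expressed A-type and B-type gamma isoforms split into members led by 44a and members led by 4.72. PCDHGA10 measured 49.4 CPM in 44a, 19.2 in 4.72 and 26.6 in 4.72-44a, against 12.2 in 3.11, 31.3 in 44b and 23.7 in 3.11-44b. PCDHGB1 measured 26.7, 9.92 and 14.0 CPM in WT/WT and 15.7, 15.2 and 10.1 CPM in WT/C134W, and PCDHGA1 measured 15.6, 6.41 and 7.76 against 5.34, 10.6 and 7.52 CPM. In these 3 genes 44a was the highest clone, at 2.44 to 2.69 times 4.72. PCDHGB2 measured 17.0, 49.0 and 34.9 CPM in WT/WT and 24.6, 42.1 and 25.4 CPM in WT/C134W. PCDHGA4 measured 3.18, 11.3 and 5.45 CPM against 3.71, 4.75 and 2.08 CPM, and PCDHGB7 1.83, 4.08 and 2.57 against 0.962, 3.29 and 3.17 CPM. In these 3 genes, which are interleaved with the first 3 along the chromosome, 4.72 was the highest clone and 2.23 to 3.56 times 44a. The most abundant gamma isoform after PCDHGC3 by TPM was PCDHGA10 in 44a, at 15.4 TPM, and PCDHGB2 in 4.72, 3.11 and 44b, at 15.8, 10.1 and 15.9 TPM. The other 14 gamma genes stayed below 1 TPM in all libraries.

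The WT/WT clones often differed in these genes, while the WT/C134W clones did so mainly in beta genes. Of the 33 members that passed the low-count filter, 20 (60.6%) were at least 2-fold apart between 44a and 4.72 after 0.5 CPM was added to both, beside 9.36% of the 16416 genes tested. Between 3.11 and 44b it was 10 of 33 (30.3%), beside 11.2%. Beta genes made up 11 of the 20 and 8 of the 10, of 14 beta genes tested. Of 19 gamma genes tested, 9 (47.4%) were 2-fold apart in WT/WT. In WT/C134W it was 2 of 19 (10.5%), with a median difference of 0.32, both near the values for all genes. The median difference was 1.21 on the log2 scale between the WT/WT clones, beside 0.27 for all genes, and 0.70 between the WT/C134W clones, beside 0.32. Many of these genes have few reads, and the 2 sets of genes were not matched for level.

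Across all 53 members, 44a was more like 44b than like the other clone of its genotype. Pearson's r of log2(TPM + 1) was 0.95 between 44a and 44b, against 0.85 between the WT/WT clones 44a and 4.72 and 0.88 between the WT/C134W clones 3.11 and 44b. The other pairs lay at 0.93 (4.72 with 44b), 0.93 (4.72 with 3.11) and 0.84 (44a with 3.11). By Spearman's rho 4.72 with 44b came first, at 0.88, followed by 44a with 44b at 0.87 and 4.72 with 3.11 at 0.84. The rho of the WT/C134W clones was 0.83, that of the WT/WT clones 0.83 and that of 44a with 3.11 0.77. Without PCDHGC3 the order of r began at 0.93 for 44a with 44b and ended at 0.78 for 44a with 3.11. Members share exons and sequence and are not independent, so these values are descriptions. 44a and 44b shared 16 expressed members, 88.9% of each clone's 18, and all 14 of 4.72 were among the 18 of 44b (77.8%). Likeness over all genes was not computed, so whether these orders are particular to the members was not tested.

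Genes listed as fibroblast markers also varied between the clones. DCN, a matrix proteoglycan, measured 78.0 CPM in 44a, 15.4 in 4.72 and 32.7 in 4.72-44a, against 6.95 in 3.11, 21.7 in 44b and 23.8 in 3.11-44b. LUM, a related proteoglycan, measured 10.7, 1.79 and 5.83 CPM in WT/WT and 0.0962, 1.66 and 2.26 CPM in WT/C134W. Both were highest in 44a and lowest in 3.11, as were PCDHB2, PCDHB10, PCDHB11, PCDHB14, PCDHGA1, PCDHGA10 and PCDHGC3. PCDHGC3 was nearly level in 44a and 4.72, at 237 and 233 CPM. The remaining expressed members had other highest or lowest clones, and the share of all genes with this order was not counted. The other fibroblast markers had other orders. PDGFRA, a growth factor receptor, was highest in 3.11, with 60.6, 38.4 and 45.5 CPM in WT/WT and 82.2, 49.3 and 65.3 CPM in WT/C134W. COL1A1, a collagen chain, split by genotype, with 25109, 20988 and 20337 CPM in WT/WT and 10679, 9860 and 9158 CPM in WT/C134W. All 4 fibroblast markers summed to 6877 to 8746 TPM in WT/WT and 3862 to 4523 TPM in WT/C134W, mostly COL1A1, and 3 of the 4 reached 1 TPM in every library. Of the leukocyte markers, CD68 stood at 93.0 to 105 TPM in every library, PTPRC reached 1 TPM in 3.11 alone, and CD3E and LYZ stayed below it throughout. Of the endothelial markers, PECAM1 reached 1.9 TPM in 4.72-44a, while VWF, KDR and CDH5 stayed below 1 TPM. Epithelial markers summed to 0.85 to 3.69 TPM in WT/WT and 0.92 to 4.59 TPM in WT/C134W. The part of such differences in the protocadherin levels was not tested.

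The joined libraries fell between their clones in most of these genes. Of the 20 expressed members, 18 lay between the 2 clones in 4.72-44a and 15 in 3.11-44b. The share of all genes that lay between was not counted under this rule, so these counts have no background beside them. Where the 2 clones were at least 4-fold apart and the higher one reached 5 CPM, 2 of 2 members lay between in WT/WT (PCDHB2 and PCDHB11), beside 95.6% of all such genes. In WT/C134W it was 4 of 5 members, beside 92%, and PCDHB14 lay just above both, at 11.3 CPM. PCDHGA4 and PCDHGB1 were lower in 3.11-44b than in either of its clones. The labels do not say how the joined libraries were made.

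**Figure D4:**
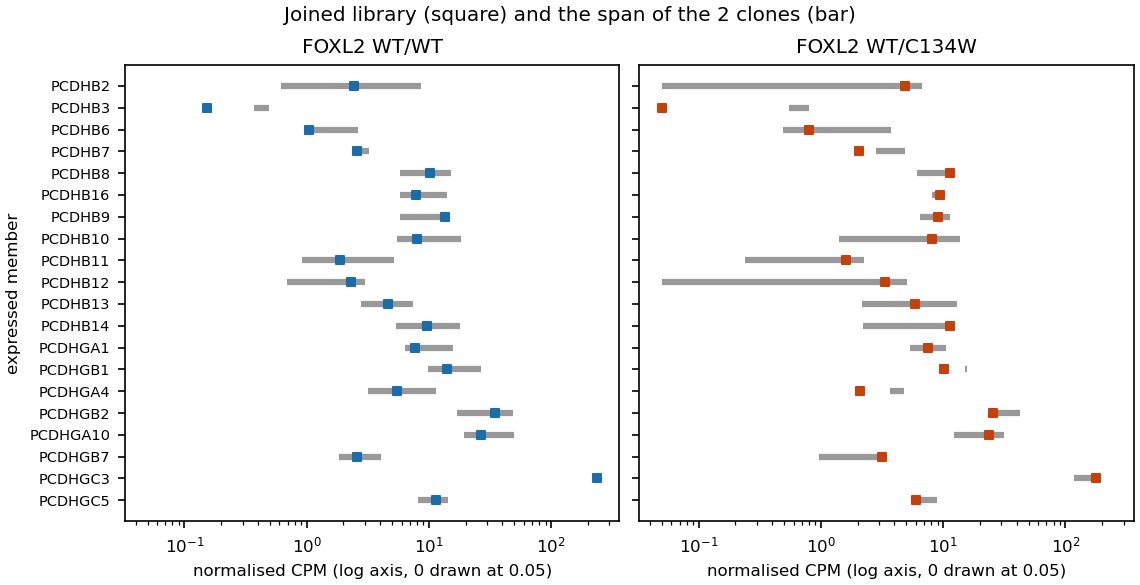
For each of the 20 expressed members, a grey bar spans the normalised CPM (log axis, 0 drawn at 0.05) of the 2 clones of a genotype and a square marks the joined library. Squares lie within the bar for 18 members in WT/WT and 15 in WT/C134W, with PCDHB3 and PCDHB7 outside in both.

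Between genotypes, no clustered protocadherin passed the test. Of the 53 members 33 passed the low-count filter, 14 beta, 19 gamma and 0 alpha, and 0 were called at an adjusted p under 0.05 by edgeR, beside 0% of the 16416 genes tested. At an unadjusted p under 0.05 edgeR gave 2 of 33 (6.06%), beside 7.57% of all genes. DESeq2 also called 0 members, beside 1.69% of all genes, and gave 3 at an unadjusted p under 0.05, PCDHGC3 with PCDHGA7 and PCDHGA3, beside 9.16%. With 44a paired to 44b and 4.72 to 3.11 as a replicate block, edgeR gave 5 of 33 at an unadjusted p under 0.05 (15.2%), beside 7.74% of all genes. These were PCDHB10, PCDHB14, PCDHGC3, PCDHGA7 and PCDHGA10, all lower in WT/C134W. With no low-count filter it gave 6 of 43 (14%), beside 8.63%, again all lower and with PCDHA12 among them. PCDHA12 was listed at 0 in the WT/WT clone 4.72 as well as in both WT/C134W clones, so its difference rests on 44a alone. The 4 clones did not overlap by genotype in 8 of 33 members (24.2%), beside 39.5% of all genes, which is below the background. PCDHGA2, PCDHGC3, PCDHGA7 and PCDHGA3 were lower in both WT/C134W clones, beside 19.8% of all genes, and PCDHB3, PCDHGC4, PCDHGB6 and PCDHGA6 were higher in both, beside 19.6%.

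Both genes at an unadjusted p under 0.05 in edgeR were rare gamma isoforms, named here after their values were seen. Among the single clones, only the WT/WT ones held 10 or more expected counts of either gene. Both thus passed the low-count filter through WT/WT alone, so their direction, lower in WT/C134W, was in part set by the filter. PCDHGA7 measured 0.519 CPM in 44a and 0.994 in 4.72 and was listed at 0 in 3.11 and 44b, at least 10.9-fold lower when 3 counts per library are taken for 0. Its joined libraries went against this, with 0 in 4.72-44a and 0.442 CPM in 3.11-44b, and its adjusted p was 0.607 in edgeR. PCDHGA3 measured 1.62, 0.398 and 0.128 CPM in WT/WT and 0.0962, 0.0883 and 0.234 CPM in WT/C134W (edgeR adjusted p = 0.658). Its joined libraries, too, had the opposite order to the single clones.

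The log2 fold changes of the members centred a little below 0. Of the 33, 20 were negative and 13 positive, with a median of -0.25, beside 0.01 for all genes tested, of which 49.4% were negative. With PCDHGA7 at its bound the median was the same. Beta genes had 8 negative and 6 positive values with a median of -0.13, and gamma genes 12 and 7 with -0.43. Scaling by library totals alone moved the median of all genes to 0.23 and that of the members to -0.04, with 17 of 33 negative beside 29.4% of all genes. The error was at least as large as the fold change in PCDHB2 (-0.45 ± 2.49, SE), PCDHB10 (-0.65 ± 1.23), PCDHGA10 (-0.66 ± 0.66) and PCDHGB2 (0.02 ± 0.57). It was slightly smaller in PCDHB11 (-1.28 ± 1.27) and PCDHGA4 (-0.77 ± 0.63), and smaller in PCDHGA3 (-3.41 ± 1.34). Intervals this wide do not show that the genotypes had equal levels. Leaving out 44a turned the median of the members to 0.52, and leaving out 44b took it to -0.98.

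**Figure D5:**
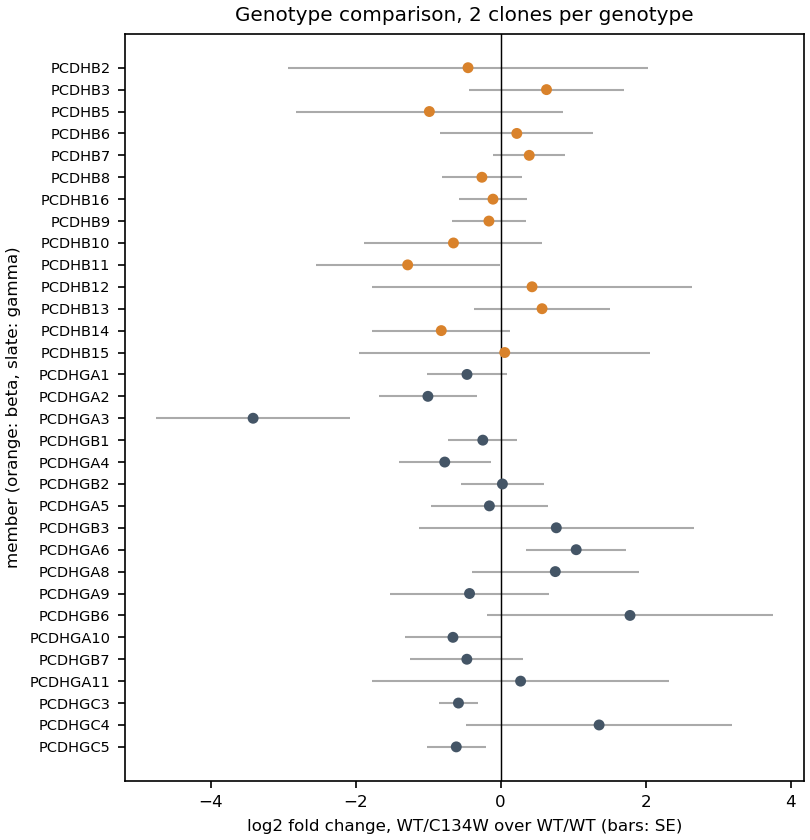
Points give the log2 fold change of WT/C134W relative to WT/WT, with SE (bars) from edgeR for 32 of the 33 tested members in chromosome order, PCDHGA7 being left out because both its WT/C134W clones are at 0. Beta genes are orange and gamma genes slate, most bars cross 0, and PCDHGC3 has the narrowest bar.

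Genes known to act with the clusters gave no call either. Of 22 chromatin regulators that include CTCF, the cohesin subunits and loaders and DNA methyltransferases, 21 were tested, 15 positive and 6 negative, with a median log2 fold change of 0.19 beside 0.01 for all genes and 0 called or at an unadjusted p under 0.05. The smallest p belonged to STAG2, a cohesin subunit (0.48 ± 0.21), WIZ, a zinc finger partner of histone methyltransferases (-0.42 ± 0.20), and KMT2A, a histone methyltransferase (0.32 ± 0.16). STAG2 measured 42.2 and 44.6 CPM in 44a and 4.72 against 70.6 in 3.11 and 50.3 in 44b. Of 26 intracellular partners and processing enzymes 25 were tested, 13 positive and 12 negative with a median of 0.00 and 0 called. In this list 2 genes had an unadjusted p under 0.05 in edgeR, beside 7.57% of all genes. They were PRKCD, a protein kinase C (-0.81 ± 0.21), and NCSTN, a subunit of the gamma-secretase that cleaves clustered protocadherins (-0.49 ± 0.15). PTK2, the focal adhesion kinase that binds the inner end of clustered protocadherins, stood at 0.41 ± 0.21. PRKCD measured 31.5 and 23.9 CPM in the WT/WT clones against 15.4 and 16.1 CPM.

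Of 11 protocadherins outside the clusters 6 were tested, 3 in each direction, with a median of -0.31 and 0 called. PCDH1 had the only unadjusted p under 0.05 among them in edgeR, beside 7.57% of all genes, and a log2 fold change of -2.60 ± 0.87. It measured 19.9 CPM in 44a, 3.43 in 4.72 and 8.66 in 4.72-44a, against 1.66 in 3.11, 2.19 in 44b and 2.45 in 3.11-44b, so that 44a stood well above the other clones. PCDH9 (0.52 ± 0.41) and PCDH18 (0.26 ± 0.19) were next by p. PCDH7 and PCDH10, named after their values were seen, also differed widely between clones of 1 genotype. PCDH7 measured 0 CPM in 44a, 57.1 in 4.72, 20.3 in 3.11 and 10.7 in 44b. In the same order PCDH10 measured 4.11, 67.7, 22.0 and 6.76 CPM, while PCDH18 varied less, with 62.0, 80.2, 91.5 and 77.7 CPM. Of 20 genes beside or between the clusters 17 were tested, 4 positive and 13 negative with a median of -0.04, 0 called and 0 at an unadjusted p under 0.05. GNPDA1 (0.46 ± 0.27), HARS2 (0.24 ± 0.17) and IK (0.20 ± 0.15) had the smallest p. HARS2 measured 22.0 and 21.8 CPM in the WT/WT clones and 25.2 and 26.2 CPM in the WT/C134W clones.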

How the data were processed

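Each library has 1 table of RSEM gene estimates, per the file headers. The expected count is the unscaled number of reads per gene that the authors deposited, which is often not whole since ambiguous reads are divided between genes. TPM and FPKM, per the file headers, are scaled by effective length, and a gene's deposited length is the mean of its transcripts weighted by their use in that library, so TPM of 1 gene can move with it. FPKM was not used. Tools named in the submitters' processing notes are RSEM 1.3.1, STAR 2.7.6a, Picard 2.8.1, DESeq2 1.26.0 and R 3.6.3, with the mouse build GRCm38 although the gene IDs are human. Which human build and strand setting served was not given in the sources used here.

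Symbols and coordinates came from GENCODE 29 (GRCh38), which holds all 127 transcripts listed for the members. The 4 single clones were compared in edgeR 4.0.16 under R 4.3.3 (rounded expected counts, filterByExpr, TMM, robust glmQLFit, glmQLFTest), with Benjamini-Hochberg adjustment over all genes and a threshold of 0.05. The SE was derived from the F value as the size of the effect over its root. CPM is TMM-normalised over 6 libraries and compares 1 gene between libraries, while TPM compares genes. Alternatives used DESeq2 1.42.0 and limma 3.58.1. The edgeR test alone was checked on simulated data, in which all genes had the same relative spread between clones. Named were FOXL2, every expressed member, the C-type members and, with 0 called, the 3 smallest p of each list. Members and lists were chosen with earlier results of these data known. The third library of each genotype entered no test except as an alternative. Protein sequences were not used here.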

Additional observations from a re-analysis of the deposited data

How the results depend on the processing

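The 0 called members remained 0 with DESeq2, median-ratio size factors, no low-count filter, all 6 libraries, limma on log2(TPM + 1), library totals alone (chosen after seeing the data), and without any 1 clone. Names pair 44a with 44b by their shared stem only, and the replicate block built on it, with 4.72 beside 3.11, also gave 0 called members. Over all genes the calls were 0 in the 4 clones with edgeR, 277 with DESeq2, 664 with no low-count filter, 511 with all 6 libraries and 5 with the block. Intracellular partners gave 2 calls with all 6 libraries, beside 3.18% of all genes. Protocadherins outside the clusters gave 3 with no low-count filter, beside 2.73%. The setting with all 6 libraries counts each joined library as a further replicate, although its title names the same clones. The cause of these calls was not tested. Without 1 clone each, the log2 ratio of summed TPM ran from -0.75 to 1.07 for beta (the highest without 44a) and from -0.76 to -0.016 for gamma (the lowest without 44b, the highest without 3.11).

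Of the 21 named members tested, 3 (PCDHGC3, PCDHGC4 and PCDHGC5) kept their sign under every alternative. Reversed signs, none of them past the threshold, were as follows. The block gave -0.24 for PCDHB6, 0.019 for PCDHB16 and -1.46 for PCDHB12. All 6 libraries gave 0.011 for PCDHB16 and -0.12 for PCDHGB2. Library totals alone gave 0.10 for PCDHB16 and 0.046 for PCDHB9. Limma on log2(TPM + 1), with and without its filter, gave 0.21 for PCDHB16, 0.52 for PCDHB9, -0.026 for PCDHB12 and 0.086 for PCDHGB1, and without the filter -0.87 for PCDHB3. With 0.1 in place of 1 it gave -0.016 for PCDHB6, 0.28 for PCDHB16, 0.60 for PCDHB9, -0.72 for PCDHB12 and 0.12 for PCDHGB1.

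Leaving out 1 clone at a time, with the lone clone assumed to vary like the other genotype, log2 fold changes ran from -10.59 to 2.43 for PCDHB2, from -9.29 to 1.85 for PCDHB12, from -3.64 to 0.44 for PCDHB11, from -3.09 to 0.46 for PCDHB10, from -2.39 to 0.29 for PCDHB14 and from -1.90 to 1.05 for PCDHB6. They ran from -1.22 to 1.43 for PCDHB13, from -0.79 to 0.59 for PCDHB8, from -0.66 to 0.60 for PCDHB9, from -0.61 to 0.66 for PCDHB16 and from -0.063 to 0.73 for PCDHB7. Among gamma genes the ranges were -1.61 to 0.22 for PCDHGB7, -1.49 to 0.17 for PCDHGA10, -1.43 to 0.41 for PCDHGA4, -1.04 to 0.31 for PCDHGA1, -0.79 to 0.63 for PCDHGB1 and -0.56 to 0.97 for PCDHGB2. PCDHGC3 ran from -1.01 to -0.26, PCDHGC5 from -0.99 to -0.15, PCDHGC4 from 0.34 to 8.38 and PCDHB3 from 0.35 to 0.87. The lowest values of PCDHB2 and PCDHB12 are without 44b, where 3.11 at 0 is the lone WT/C134W clone, and are no bounds, and their highest are without 44a. The highest of PCDHGC4 is without 4.72, where 44a at 0 is the lone WT/WT clone, and is no bound. With 2 clones per genotype and shared sequence between members, these data limit any statement to the clones at hand.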
